A study of Mus musculus with 12 samples.

Results

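The 10 genes described here mark fibroblasts of the tumor stroma: *Pdgfra*, *Dcn*, *Lum*, *Postn*, *Fap*, *Thy1*, *Dpt*, *Pi16*, *Fbln1* and *Sparc*. They were taken by name, not by a measured value, and all 10 were among the 15687 genes measured. RNA was sequenced from 12 tumors that had grown under the skin of male C57BL6/J mice, 8 weeks old at injection, from injected mTC11 cells (a lung cancer line of the mouse). The 6 CTL tumors came from cells transduced with a control hairpin and the 6 *Filip1l*-knockdown tumors from cells transduced with a hairpin against *Filip1l*, the gene whose loss the study examined. In both groups the cells were injected in Matrigel and the tumors were collected on day 24. The labels do not say which of the available *Filip1l* hairpins the sequenced tumors carried. Each group grew from transduced and selected derivatives of the same line, so differences between those derivatives and the effect of the knockdown cannot be told apart. The hairpins were in the injected cells, and the host mice were not altered.

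Fibroblasts are the main builders of the collagen-rich matrix between epithelial cells. In resting connective tissue, and around vessels above all, a reservoir population is known by *Pi16* and *Dpt*, whereas fibroblasts activated inside tumors are known by *Fap*, *Postn* and contractile proteins. *Pdgfra* encodes a growth factor receptor that most fibroblasts carry. Whole tumors were sequenced, so fewer fibroblasts in a tumor and less RNA of a gene per fibroblast cannot be told apart, nor can RNA made by host fibroblasts and RNA of the same gene made by the cancer cells.

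Values are read counts per gene that the authors divided by a size factor of each tumor (normalized counts), and they allow 1 gene to be compared across tumors. The tumors held 17834745 (CTL replicate 5) to 32419578 (knockdown replicate 5) reads on the listed genes. *Filip1l* had a median of 2354 normalized counts in CTL tumors (1983 to 2542) and of 1935 in knockdown tumors (1670 to 2184). This was a log2 fold change of -0.26 (SE 0.07, limma adjusted p = 0.00998), with 5 of 6 knockdown tumors below the lowest CTL tumor. Knockdown replicate 1 lay farthest from the others of its group, at a mean distance of 93.9 on the log2 scale against 77.0 to 81.0, and CTL replicate 5 lay at 81.8 against 68.0 to 74.3. The epithelial markers *Epcam* and *Krt8* were well expressed in every tumor, from 3817 and from 47665 normalized counts upwards. The lung markers *Nkx2-1* and *Sftpc* were low, at 17.2 ± 14.3 and 9.76 ± 21.2 normalized counts in CTL tumors and 39.4 ± 40.9 and 29.2 ± 25.9 in knockdown tumors (SD, n = 6).

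Per kilobase of exon, which allows genes to be compared, *Sparc* was the most abundant of the 10 markers in CTL tumors, with 10668 ± 1532 normalized counts per kilobase (SD, n = 6). *Postn* followed with 1983 ± 668, *Thy1* with 857 ± 333, *Fbln1* with 407 ± 69.5, *Lum* with 347 ± 96.6 and *Dcn* with 241 ± 38.3 (SD, n = 6 each). The receptor *Pdgfra* stood far lower, at 55.0 ± 13.2, and the activation marker *Fap* at 27.0 ± 6.19. *Dpt* lay between these groups at 117 ± 32.4. *Pi16* was the lowest of the 10 in CTL tumors, at 23.3 ± 8.34 per kilobase, and in knockdown tumors it averaged 63.4 ± 35.1 beside 42.0 ± 13.9 for *Pdgfra* and 25.8 ± 16.7 for *Fap*. Of the neighbors in the CTL order, *Fbln1* and *Lum*, *Lum* and *Dcn*, and *Fap* and *Pi16* lay within their SDs of each other, and the others did not.

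In knockdown tumors the reservoir markers *Pi16* and *Dpt* were higher, and the surface glycoprotein gene *Thy1* and the matrix genes *Fbln1* and *Sparc* were lower. *Pi16* was 2.53 times as high and passed both thresholds (an absolute log2 fold change over 1 and a limma adjusted p under 0.05), as did 10.2% of all genes. At an adjusted p under 0.05 alone, 2 of 10 markers were higher, as were 21.1% of all genes, and 3 of 10 were lower, as were 20.7% of all genes. These shares of the markers are close to those over all genes. For 0 of 10 markers were the group ranges fully separated, against 21.5% of all genes. The median log2 fold change of the 10 markers was -0.49, beside 0.01 over all genes, and -0.24 with edgeR and -0.23 with DESeq2 on whole reads. One library moved this picture: without knockdown replicate 1, 6 of 10 markers were lower (against 21.8% of all genes) and 1 was higher (against 22.4%), and the median was -0.59.

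**Figure D1:**
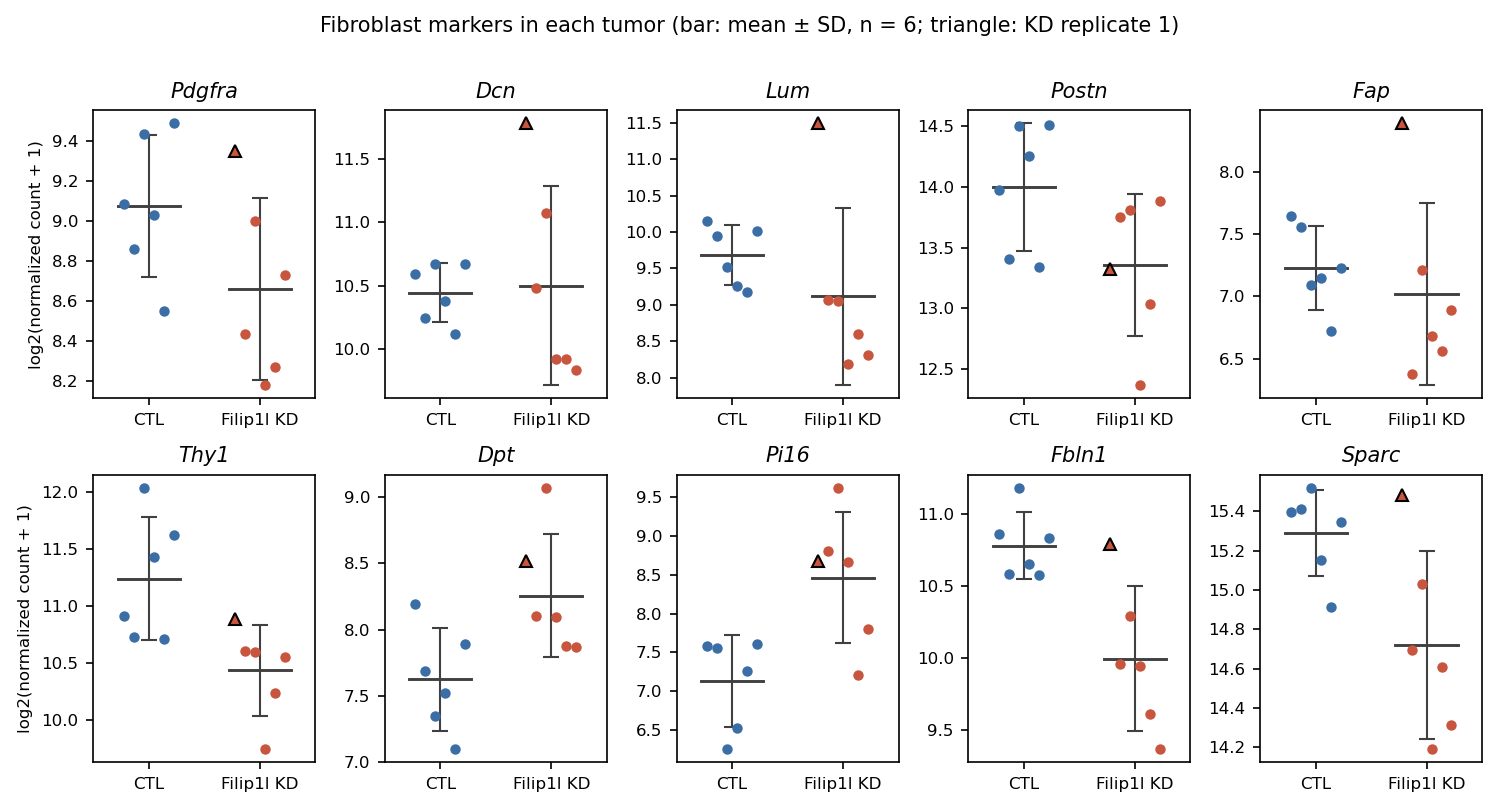
Each panel plots 1 marker as log2(normalized count + 1) on its own axis for the 6 CTL and the 6 knockdown tumors, with a bar at the mean and whiskers of 1 SD; the triangle is knockdown replicate 1. *Pi16* and *Dpt* lie higher in knockdown tumors and *Thy1*, *Fbln1* and *Sparc* lower, and knockdown replicate 1 is the highest knockdown tumor for *Pdgfra*, *Dcn*, *Lum*, *Fap*, *Thy1*, *Fbln1* and *Sparc*.

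Promoter sequence is shown for 3 of the markers, *Dpt*, which was higher, *Fbln1*, which was lower, and *Postn*, of which 1 window held a TATA box. RefSeq start sites on GRCm38.p6 were found for *Pdgfra*, *Postn*, *Dpt*, *Pi16*, *Fbln1* and *Sparc*, and not for *Dcn*, *Lum*, *Fap* and *Thy1*. Windows are the 250 bases before the start, read 5′ to 3′ on the gene's strand, and capitals mark a motif. They were chr1:164796413-164796662 (+) for *Dpt*, of which the last 19 bases are exon in the GENCODE annotation, chr15:85205699-85205948 (+) for *Fbln1* and chr3:54360857-54361106 (+) for *Postn*.
Dpt: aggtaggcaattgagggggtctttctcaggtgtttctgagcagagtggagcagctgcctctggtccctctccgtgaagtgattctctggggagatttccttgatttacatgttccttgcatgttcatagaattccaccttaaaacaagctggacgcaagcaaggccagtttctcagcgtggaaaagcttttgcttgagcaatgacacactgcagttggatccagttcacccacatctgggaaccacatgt
Fbln1: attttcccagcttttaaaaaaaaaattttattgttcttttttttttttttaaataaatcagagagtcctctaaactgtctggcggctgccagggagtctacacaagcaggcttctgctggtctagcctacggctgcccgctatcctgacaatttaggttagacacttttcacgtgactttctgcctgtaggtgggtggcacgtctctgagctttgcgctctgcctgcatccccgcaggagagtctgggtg
Postn: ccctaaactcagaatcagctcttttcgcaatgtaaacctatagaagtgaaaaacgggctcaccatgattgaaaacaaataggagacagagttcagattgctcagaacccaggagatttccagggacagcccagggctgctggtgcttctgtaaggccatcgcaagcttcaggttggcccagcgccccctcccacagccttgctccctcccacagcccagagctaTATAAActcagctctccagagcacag

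Windows were searched on both strands for the TATA box (letters TATAAA), the element bound by AP-1 factors (letters TGANTCA) and the element bound by TEAD factors (letters CATTCC), which do not overlap one another in these sequences. These letters occur in 12.4%, 6.75% and 12.6% of the 32851 RefSeq windows of this length. Among the windows of the 6 markers, 1 match was found, the TATAAA of *Postn*, 26 to 21 bases before its start. *Fbln1* and *Postn* each have a second RefSeq start, whose windows are not printed. By the GENCODE annotation, exon filled all 250 bases of the *Pi16* window, 238 of the *Sparc* window and 59 of the other *Fbln1* window. The lack of a match therefore says little of the sequence upstream of *Pi16* and *Sparc*. The GC content was 48.8% in the *Dpt* window, 46.4% in the printed and 62.4% in the other *Fbln1* window, and 52% in the printed and 40.4% in the other *Postn* window, beside a median of 52.4% over all windows.

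*Pi16* (ENSMUSG00000024011, chromosome 17, 29317680 to 29330593) encodes a secreted peptidase inhibitor of adventitial fibroblasts. It ranged from 74.9 to 194 normalized counts (median 169) in CTL tumors and from 147 to 789 (median 407) in knockdown tumors. In 5 of 6 knockdown tumors *Pi16* was above the highest CTL tumor, and only knockdown replicate 5 lay inside the CTL range. The log2 fold change was 1.34 (SE 0.36, limma adjusted p = 0.00886, exact two-sided permutation p = 0.0173), with a 95% interval from 0.56 to 2.12. The highest value was that of knockdown replicate 3, without which the *Pi16* change was 1.11 (limma adjusted p = 0.0188). Skeletal muscle markers were also most abundant in that tumor, with a summed level of 114896 normalized counts against 6506 to 53342 in the other knockdown tumors, and the part of muscle tissue in the *Pi16* value was not tested.

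*Dpt* (ENSMUSG00000026574, chromosome 1, 164796644 to 164824266) encodes dermatopontin, a small matrix protein that binds decorin and helps collagen fibrils assemble. It ranged from 136 to 292 normalized counts (median 194) in CTL tumors and from 233 to 536 (median 273) in knockdown tumors. All 6 knockdown tumors were above the CTL median and 2 of them above the highest CTL tumor, CTL replicate 1, so the groups overlapped. The log2 fold change of *Dpt* was 0.63 (SE 0.22, limma adjusted p = 0.0320, exact two-sided permutation p = 0.0281), with a 95% interval from 0.16 to 1.10. The call was narrow. It was lost without CTL replicate 3 (0.58, limma adjusted p = 0.0629), CTL replicate 4 (0.61, 0.0575), CTL replicate 5 (0.53, 0.0737), knockdown replicate 1 (0.58, 0.0554) or knockdown replicate 3 (0.47, 0.0634), and also after rescaling to the same total (0.59, 0.0537) or removal of trends in GC content and length (0.57, 0.0615).

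*Thy1* (ENSMUSG00000032011, chromosome 9, 44043384 to 44048579) encodes a surface glycoprotein of fibroblasts that is also carried by T cells and neurons. It ranged from 1677 to 4197 normalized counts (median 2344) in CTL tumors and from 859 to 1898 (median 1526) in knockdown tumors. Only knockdown replicate 1 reached into the CTL range, and the other 5 were below the lowest CTL tumor. The *Thy1* level in knockdown tumors was 0.574 times that in CTL tumors, a log2 fold change of -0.80 (SE 0.23, limma adjusted p = 0.0133, exact two-sided permutation p = 0.0130). Of 9 T cell markers 0 passed the limma test, 0 had an unadjusted p under 0.05, and 0 passed with edgeR or DESeq2. Their summed level overlapped between the groups, from 1006 to 2628 normalized counts in the CTL group and from 1142 to 2203 in the knockdown group. CTL replicate 3 had both the highest *Thy1* value (4197) and the highest T cell sum (2628). Without that tumor the *Thy1* change was -0.64 (limma adjusted p = 0.0252). The part of T cells in the *Thy1* difference was not tested.

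*Pdgfra* (ENSMUSG00000029231, chromosome 5, 75152292 to 75198215), the receptor for platelet-derived growth factors, ranged from 373 to 717 normalized counts (median 532) in CTL tumors and from 289 to 651 (median 384) in knockdown tumors. Knockdown replicates 2, 4 and 5 lay below the lowest CTL tumor and knockdown replicate 1 was above 4 of 6 CTL tumors. The *Pdgfra* log2 fold change of -0.41 did not pass the test (SE 0.21, limma adjusted p = 0.122, exact two-sided permutation p = 0.113), with a 95% interval from -0.85 to 0.03. Without knockdown replicate 1 it was -0.55 and passed (limma adjusted p = 0.0233).

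*Fap* (ENSMUSG00000000392, chromosome 2, 62500943 to 62574075) encodes fibroblast activation protein, a membrane peptidase of activated stroma. It ranged from 105 to 199 normalized counts (median 145) in CTL tumors and from 82.2 to 334 (median 110) in knockdown tumors. Knockdown replicate 1 was above every other tumor of either group, and the next highest knockdown tumor had 147. The *Fap* log2 fold change was -0.21 (SE 0.29, limma adjusted p = 0.596, exact two-sided permutation p = 0.554), with a 95% interval from -0.83 to 0.41. Without knockdown replicate 1 it was -0.49 (limma adjusted p = 0.0488), just past the threshold.

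The small leucine-rich proteoglycans decorin and lumican coat collagen fibrils and set their spacing. *Dcn* (ENSMUSG00000019929, chromosome 10, 97479609 to 97518143) ranged from 1108 to 1632 normalized counts (median 1433) in CTL tumors and from 910 to 3513 (median 1197) in knockdown tumors. Knockdown replicates 1 and 3 were above every CTL tumor and knockdown replicates 4, 5 and 6 below every CTL tumor, so the knockdown tumors spread to both sides. The *Dcn* log2 fold change was 0.06 (SE 0.29, limma adjusted p = 0.899, exact two-sided permutation p = 0.883), with a 95% interval from -0.56 to 0.67, and it changed sign without knockdown replicate 1 (-0.20), knockdown replicate 3 (-0.06) or CTL replicate 5 (-0.01).

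*Lum* (ENSMUSG00000036446), a neighbor of *Dcn* on chromosome 10 (97565128 to 97572703), ranged from 580 to 1137 normalized counts (median 862) in CTL tumors and from 291 to 2881 (median 458) in knockdown tumors. In 5 of 6 knockdown tumors *Lum* was below the lowest CTL tumor, while in knockdown replicate 1 it was above the highest. With all tumors the *Lum* log2 fold change was -0.56 and did not pass (SE 0.45, limma adjusted p = 0.339, exact two-sided permutation p = 0.325), with the widest 95% interval of the 10 markers, from -1.52 to 0.39. Without knockdown replicate 1 it was -1.04 and passed both thresholds (limma adjusted p = 0.00119).

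*Fbln1* (ENSMUSG00000006369, chromosome 15, 85205949 to 85286535) encodes fibulin 1, a glycoprotein of elastic fibers and basement membranes. It ranged from 1525 to 2326 normalized counts (median 1715) in CTL tumors and from 659 to 1775 (median 989) in knockdown tumors. Knockdown replicate 1 was the only knockdown tumor inside the CTL range. The *Fbln1* level in knockdown tumors was 0.579 times that in CTL tumors, a log2 fold change of -0.79 (SE 0.20, limma adjusted p = 0.00504, exact two-sided permutation p = 0.00866). This was the smallest adjusted p among the 10 markers in the limma fit of all 12 tumors.

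Periostin and SPARC are matricellular proteins, which sit in the matrix and signal to cells more than they bear load. *Sparc* (ENSMUSG00000018593, chromosome 11, 55394500 to 55423183) ranged from 30865 to 46951 normalized counts (median 42367) in CTL tumors and from 18698 to 45826 (median 25734) in knockdown tumors. Knockdown replicates 2, 4, 5 and 6 were below every CTL tumor, knockdown replicate 3 was inside the CTL range, and knockdown replicate 1 was above 5 of 6 CTL tumors. The *Sparc* log2 fold change was -0.57 (SE 0.19, limma adjusted p = 0.0246, exact two-sided permutation p = 0.0325). The *Sparc* call was lost without CTL replicate 3 (-0.52, limma adjusted p = 0.0502), knockdown replicate 4 (-0.46, 0.0543) or knockdown replicate 6 (-0.49, 0.0583), and without knockdown replicate 1 the change was larger, -0.72 (limma adjusted p = 0.00104).

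*Postn* (ENSMUSG00000027750, chromosome 3, 54361109 to 54391037) ranged from 10368 to 23390 normalized counts (median 17822) in CTL tumors and from 5281 to 15068 (median 11996) in knockdown tumors. All 6 knockdown tumors were below the CTL median, and knockdown replicates 1, 4 and 5 were below the lowest CTL tumor. Unlike for *Dcn*, *Lum*, *Fbln1* and *Sparc*, knockdown replicate 1 was not the highest of its group for *Postn*. The *Postn* log2 fold change of -0.64 did not pass (SE 0.27, limma adjusted p = 0.0759, exact two-sided permutation p = 0.0736), and it passed without CTL replicate 2 (-0.76, limma adjusted p = 0.0456) or CTL replicate 5 (-0.77, 0.0393), the 2 CTL tumors with the least *Postn*.

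**Figure D2:**
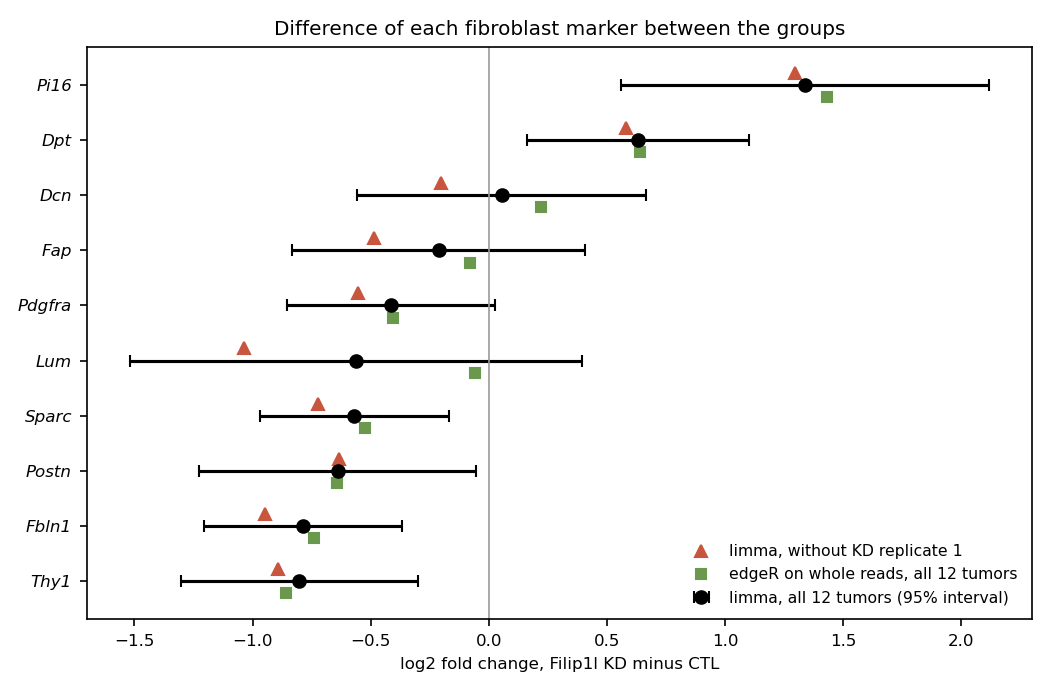
The log2 fold change (knockdown minus CTL) of each marker is plotted with its 95% interval from limma on all 12 tumors (circles), without knockdown replicate 1 (triangles) and from edgeR on whole reads (squares). *Pi16* (1.34) and *Dpt* (0.63) lie above 0, and the intervals of *Thy1*, *Fbln1*, *Sparc* and *Postn* lie below 0. The intervals are not adjusted for the number of genes, and *Postn* did not pass the adjusted test (limma adjusted p = 0.0759). The estimates for *Lum* differ most between the 3 fits (-0.56, -1.04 and -0.06).

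Each marker was also expressed relative to *Pdgfra* in the same tumor, as a log2 ratio. The log2 ratio of *Pi16* to *Pdgfra* ranged from -3.19 to -1.29 in CTL tumors (median -1.69) and from -1.06 to 0.63 in knockdown tumors (median -0.15). The log2 ratio of *Dpt* to *Pdgfra* ranged from -2.08 to -0.89 in CTL tumors (median -1.48) and from -0.86 to 0.07 in knockdown tumors (median -0.36). For both reservoir markers every knockdown tumor was thus above every CTL tumor, although neither was separated in normalized counts. For *Dpt* the gap was narrow. The log2 fold change of *Pdgfra* itself, -0.41 and not past the test, enters every ratio with its sign reversed. The groups overlapped for the other 7 ratios. Of the 9 ratios 2 were separated, beside 6.2% when each of the other 15686 genes was set against *Pdgfra*. Relative to *Pdgfra*, *Sparc* ranged from 5.86 to 6.55 in CTL tumors and from 5.59 to 6.34 in knockdown tumors, and *Lum* from 0.09 to 1.09 and from -0.42 to 2.14. These ratios were chosen after the values had been seen, and they are given without a test.

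**Figure D3:**
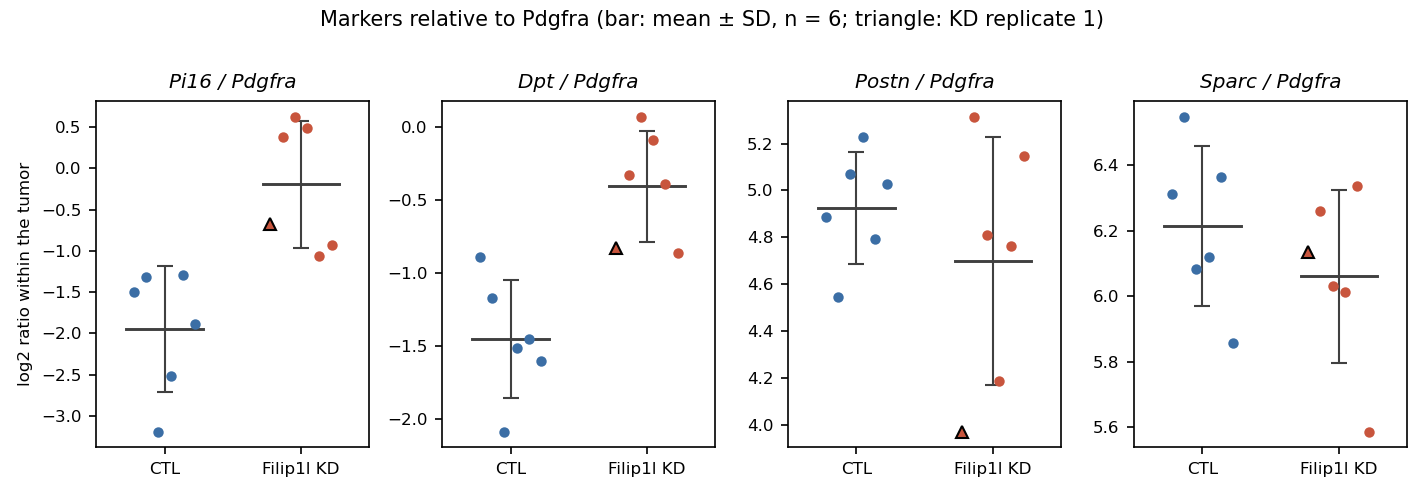
The log2 ratio of 4 markers to *Pdgfra* in the same tumor is plotted for 6 CTL and 6 knockdown tumors, with a bar at the mean and whiskers of 1 SD; the triangle is knockdown replicate 1. The groups are apart for *Pi16* and *Dpt* and overlap for *Postn* and *Sparc*.

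Most of the markers varied together among tumors of the same group. After removal of the group means, the 45 pairs of markers had a median Pearson r of 0.58 over the 12 tumors, from -0.20 to 0.92, with 28 pairs above 0.5 and 2 below 0. The closest pairs were *Dcn* with *Sparc* (0.92), *Dcn* with *Fbln1* (0.92) and *Lum* with *Sparc* (0.88). *Postn* and *Thy1* went together (0.85) and were only loosely tied to *Lum* (0.13 and 0.37) and *Fap* (0.07 and 0.26). *Dpt* and *Pi16* went together as well (0.73), and both pairs below 0 were those of *Pi16*, at -0.20 with *Thy1* and -0.05 with *Postn*. Without knockdown replicate 1 the median was 0.51, with 24 pairs above 0.5. The ties of *Fap* and *Lum* rested in part on that tumor: without it r was 0.18 for *Fap* with *Fbln1*, 0.39 for *Dcn* with *Fap*, 0.41 for *Lum* with *Fbln1*, 0.44 for *Pdgfra* with *Lum* and 0.49 for *Pdgfra* with *Fap*. *Pdgfra* with *Fbln1* fell as well, from 0.70 to 0.49. In the 6 CTL tumors alone the median r was 0.51, with 23 of 45 pairs above 0.5 and 9 below 0. The lowest of these was *Thy1* with *Pi16* (-0.66). These correlations are descriptions, given without those of other gene pairs beside them. All values of a tumor share its library and its size factor.

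**Figure D4:**
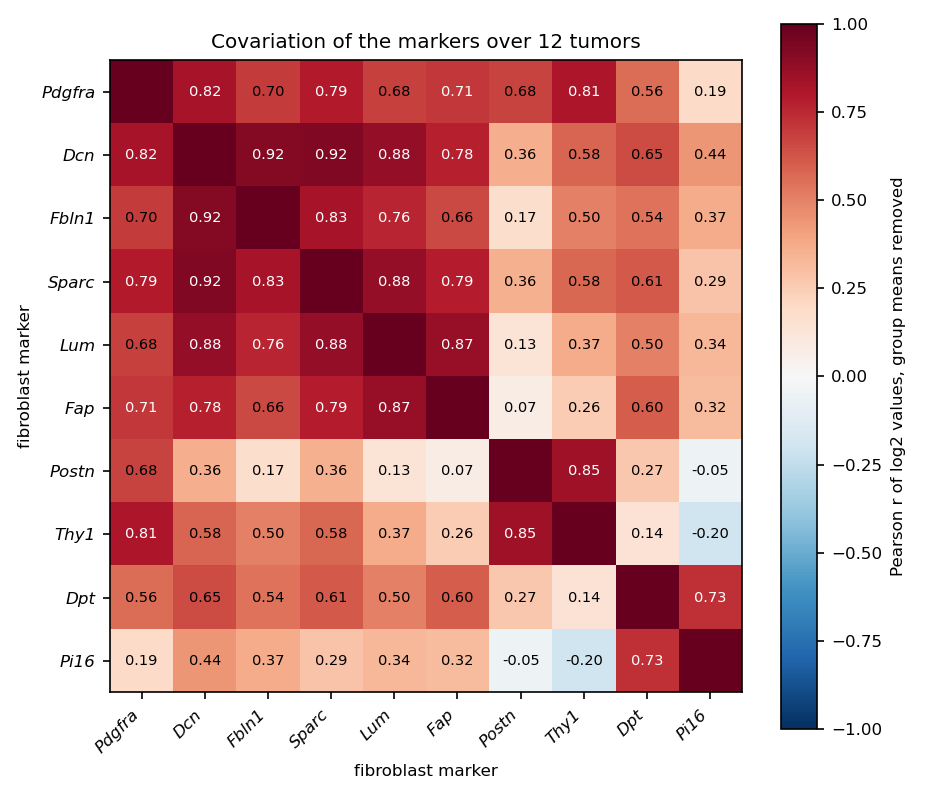
The grid gives Pearson r between each pair of markers over 12 tumors, from log2 values with the group means removed, with color running from -1 (blue) to 1 (red). *Pdgfra*, *Dcn*, *Fbln1*, *Sparc*, *Lum* and *Fap* have r of 0.66 or more among them with all 12 tumors, some of which fell below 0.5 without knockdown replicate 1, *Postn* pairs with *Thy1* (0.85) and *Dpt* with *Pi16* (0.73).

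The genes outside the list whose pattern was most like the mean of the 10 standardized markers, again within groups and over 12 tumors, were *Mfap5* (r = 0.97), *Tfpi* (0.97), *Islr* (0.97), *Lhfp* (0.96), *Mrc2* (0.95), *Loxl1* (0.95), *Prkch* (0.94), *Zfp354c* (0.94), *Kif26b* (0.94) and *Cd248* (0.94). The median r over the 12878 genes compared was -0.06, and 0.481% of them were above 0.9. Several of these are known stromal genes: *Mfap5* encodes a microfibril glycoprotein, *Loxl1* an enzyme that crosslinks elastin, *Mrc2* a collagen uptake receptor and *Cd248* endosialin, a surface protein of fibroblasts and pericytes. Of these 10 genes *Islr* (-0.78, limma adjusted p = 0.0119) and *Kif26b* (-0.71, limma adjusted p = 0.0111) were lower in knockdown tumors, and the other 8 did not pass.

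The wider families of these markers are given next by their counts at an adjusted p under 0.05, to be read beside the 21.1% of all genes that were higher and the 20.7% that were lower. In knockdown tumors the median gene was shifted by -0.36 on chromosome 19, -0.20 on chromosome 8 and 0.38 on chromosome 14 (log2). The 10 markers lie on other chromosomes. The lists count as lower *Efemp2* and *Acta2* of chromosome 19 and *Podnl1* of chromosome 8, and as higher *Hp* of chromosome 8. The counts are not corrected for these shifts, whose part was not tested. Of 12 small leucine-rich proteoglycans measured, the family of *Dcn* and *Lum*, 1 was higher and 4 were lower, with a median log2 fold change of -0.17. *Bgn*, which encodes biglycan and was the most abundant of them, ranged from 36960 to 47744 normalized counts in the CTL group and from 27603 to 39259 in the knockdown group (-0.39, limma adjusted p = 0.00411). Of 16 fibulins and other elastic fiber glycoproteins, which include *Fbln1*, 1 was higher and 8 were lower (median -0.48). *Ltbp1*, whose product stores latent TGF-β in the matrix, fell from 8577 ± 485 normalized counts to 3722 ± 455 (SD, n = 6; -1.21, limma adjusted p = 8.45e-08). *Fbln7* was lower as well (-1.01, limma adjusted p = 0.0403), while *Efemp1*, which encodes fibulin 3, was the 1 higher gene (1.21, limma adjusted p = 0.00397).

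Of 14 SPARC family and matricellular genes, *Sparc* and *Postn* among them, 0 were higher and 7 were lower, with a median log2 fold change of -0.60. *Spp1*, which encodes osteopontin and is also made by macrophages and tumor cells, fell from 175988 ± 20717 to 70309 ± 12161 normalized counts (SD, n = 6; -1.34, limma adjusted p = 2.57e-06). *Tnc*, which encodes tenascin C, fell from 24317 ± 4771 to 10756 ± 3123 (SD, n = 6; -1.19, limma adjusted p = 0.000102). Of 6 PDGF ligands and receptors 1 passed the test, the ligand *Pdgfc*, which was lower (-0.66, limma adjusted p = 7.44e-06) and after exclusion of knockdown replicate 1 was joined by 2 others. Of 13 genes of fibrillar collagens, beaded filament collagens and collagen assembly, 0 were higher and 8 were lower (median -0.60). The widest changes were in the beaded filament collagens *Col6a1* (-1.40, limma adjusted p = 9.28e-06) and *Col6a2* (-1.23, limma adjusted p = 5.95e-05). Of the fibrillar chains, *Col1a1*, *Col1a2*, *Col5a1* and *Col5a2* were lower without passing both thresholds, and *Col3a1* did not pass (-0.52, limma adjusted p = 0.114).

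Lists of genes known from 3 fibroblast states were counted in the same way. Of 15 resting and adventitial fibroblast genes, *Pi16* and *Dpt* among them, 7 were higher and 3 were lower, with a median log2 fold change of 0.37. Without knockdown replicate 1, 6 were higher and 5 were lower. *Dpp4*, a peptidase gene of universal fibroblasts that is also a brush border peptidase of epithelium, rose from 128 ± 36.9 to 834 ± 159 normalized counts (SD, n = 6; 2.72, limma adjusted p = 1.38e-07). *Clec3b*, which encodes tetranectin, rose from 29.2 ± 8.95 to 76.7 ± 39.8 (SD, n = 6; 1.27, limma adjusted p = 0.00429). *Sema3c*, a secreted guidance factor of the same list, went the other way, from 8276 ± 985 to 2835 ± 391 (SD, n = 6; -1.55, limma adjusted p = 5.62e-08).

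Of 14 genes listed for contractile, activated fibroblasts, which include *Postn* and *Fap*, 0 were higher and 8 were lower (median -0.62). With DESeq2, 1 was higher at an adjusted p under 0.05. Many of the listed genes do not encode contractile proteins. Of those that do, *Acta2* (-0.61), *Tagln* (-0.58) and *Myl9* (-0.72) were lower. *Cnn1* (-0.46, limma adjusted p = 0.168) and *Tpm2* (0.71, limma adjusted p = 0.107) did not pass. *Lrrc15*, a marker of tumor myofibroblasts, ranged from 2230 to 5094 normalized counts in the CTL group and from 790 to 1660 in the knockdown group (-1.40, limma adjusted p = 8.81e-05). *Mmp11*, a stromal metalloproteinase gene (-1.62, limma adjusted p = 1.58e-05), *Inhba*, which encodes the activin A subunit (-1.44, limma adjusted p = 0.000351), and *Col12a1* (-1.05, limma adjusted p = 0.00176) were lower too. Of 12 inflammatory fibroblast genes 4 were higher and 1 was lower (median 0.34), and without knockdown replicate 1, 2 were higher and 1 was lower. The complement gene *C3* ranged from 6663 to 8649 normalized counts in the CTL group and from 12431 to 29297 in the knockdown group (1.30, limma adjusted p = 0.000142), and the chemokine gene *Cxcl12* from 162 to 303 and from 301 to 1698 (1.25, limma adjusted p = 0.00892). *Has2*, which encodes a hyaluronan synthase, was lower (-1.42, limma adjusted p = 0.00404). Of 13 fibroblast transcription factors 1 was higher and 10 were lower (median -0.82), among them *Prrx2*, from 1175 ± 111 to 301 ± 99.1 normalized counts (SD, n = 6; -2.01, limma adjusted p = 8.07e-07), *Snai2* (-1.27, limma adjusted p = 6.63e-06) and *Twist1* (-1.07, limma adjusted p = 0.00267), which are also made by cancer cells with mesenchymal features.

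**Figure D5:**
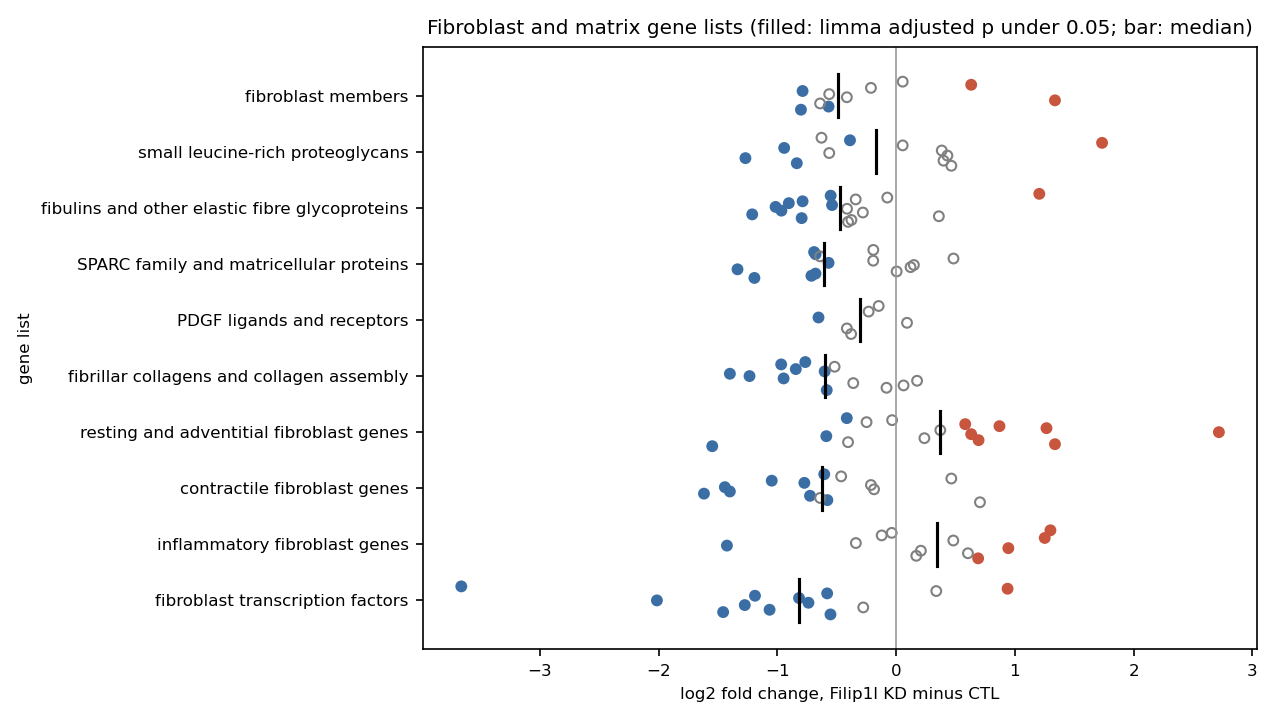
Each point is the log2 fold change (knockdown minus CTL) of 1 gene, arranged by list, filled where the limma adjusted p was under 0.05 (red higher, blue lower) and open where it was not, with a bar at the list's median. The matrix, contractile and transcription factor lists have medians from -0.82 to -0.17 and the resting and inflammatory lists 0.37 and 0.34.

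Markers of other cell types are given for the same tumors, to be read beside the 21.1% of all genes that were higher. The summed level of 12 epithelial markers ranged from 152428 to 199857 normalized counts in the CTL group and from 223734 to 409221 in the knockdown group, with 9 higher and 0 lower, and knockdown replicate 1 had the lowest sum of its group. The summed level of the 10 fibroblast markers ranged from 46890 to 80153 in CTL tumors and from 28151 to 67887 in knockdown tumors, where knockdown replicate 1 was the highest. Most of that sum was *Sparc* (means of 40410 in CTL and 28308 in knockdown tumors) and *Postn* (17252 and 11174). It therefore says little of the other markers, of which *Pi16* and *Dpt* were higher. Skeletal muscle markers were higher in 12 of 14 (sums of 3137 to 15498 and of 6506 to 114896), as were endothelial markers in 7 of 10, neutrophil markers in 6 of 8, adipocyte markers in 4 of 7 and Schwann cell markers in 4 of 6, each with 0 lower. Of the 10 adipocyte markers listed, *Plin1*, *Lep* and *Retn* were not measured. Of the 9 Schwann cell markers listed, *Sox10*, *Ngfr* and *Cdh19* were not measured. Pericyte and smooth muscle markers were higher in 2 of 10 and macrophage markers in 2 of 10, limma shares close to that over all genes, each with 0 lower. With DESeq2, 5 of 10 pericyte and smooth muscle markers and 3 of 10 macrophage markers were higher, and with edgeR 2 of 10 of each. Mesothelial markers were higher in 2 of 3 with 0 lower. Of the 6 listed, *Upk3b*, *Lrrn4* and *Muc16* were not measured, and *Krt19* is also among the epithelial markers. Of 6 skin keratinocyte markers 2 were lower with 0 higher. In these lists and in the matricellular, PDGF and collagen lists, each direction with 0 genes also had 0 at an unadjusted p under 0.05 and 0 with edgeR or DESeq2. Without knockdown replicate 1, 7 of 14 skeletal muscle markers were higher, as were 1 of 10 pericyte and smooth muscle markers and 1 of 10 macrophage markers, and 1 of 8 neutrophil markers was lower. The part of these cell types in the marker differences was not tested.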

How the data were processed

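RNA of whole tumors was sequenced in 12 mice, 6 per group, and all 12 libraries were used. The submitters' processing notes name Trimmomatic 0.36, STAR 2.5.2b, featureCounts of Subread 1.5.2, DESeq2 and mm10. The authors deposited size-factor normalized counts, a signal left uncorrected for gene length. Within a tumor, values were whole multiples of the value of 1 read (0.865 to 1.49) for 100% of genes within 0.001, so whole reads were recovered for edgeR 4.0.16 and DESeq2 1.42.0, alternatives chosen after seeing the data. They called 1635 and 1652 genes, against 1596 by limma.

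Values were analysed as log2(normalized count + 1) with limma-trend (limma 3.58.1, R 4.3.3), and p-values were adjusted by Benjamini-Hochberg over 15687 genes. A filter at a mean of 5 removed 0 genes, and all 10 markers passed. The exact permutation test, 2-sided, went through the 924 ways to arrange the labels and can give no p below 0.00216. Symbols and exon lengths came from GENCODE vM21 on GRCm38, which held 15661 of the identifiers. The steps were tested on simulated data.

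The markers, lists, naming rule and alternatives were chosen with earlier results of these data known. Of each list the genes past both thresholds and averaging 50 or more normalized counts are named, at most 4, or the most abundant where none passed. Genes named for their chromosome or to show what a list holds come in addition. The labels call the replicates biological and name no batch or date, and no pairing was used.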

Additional observations from a re-analysis of the deposited data

Results flagged for a closer look

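Among the 20 sets of 6 tumors examined (10 markers in 2 groups), 2 held a tumor whose gap to its nearest neighbor, as a share of the whole range, was above Dixon's 95% critical value for 6 samples. Chance flags about 1 in 20 such groups. *Lum* reached 2881 normalized counts in knockdown replicate 1, and the next highest knockdown tumor had 535, a gap of 0.906 of the range. *Fap* reached 334 normalized counts in the same tumor, with the next at 147, a gap of 0.742 of the range. Both values come from the tumor that also had the highest *Dcn*, *Pdgfra*, *Thy1*, *Fbln1* and *Sparc* of its group.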

How the results depend on the processing

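Over 25 alternatives, *Pi16*, *Thy1* and *Fbln1* kept their direction and an adjusted p under 0.05 in all 12 fits that left out 1 tumor and in all 13 others. After removal of trends in GC content and length, 1 marker was higher and *Dpt* was 0.57 (limma adjusted p = 0.0615). After rescaling to the same total, 1 was higher and *Dpt* was 0.59 (0.0537). Tumors with the same replicate number did not deviate together (correlations of -0.269 to 0.0990). With a replicate block 5 were lower, with *Pdgfra* at -0.41 (0.0400) and *Postn* at -0.64 (0.0498) now past the threshold. Without CTL replicate 5 and knockdown replicate 1, chosen after seeing the data, 2 markers were called, 1 was higher and 6 were lower, with *Pdgfra* at -0.66, *Dcn* at -0.27, *Lum* at -1.14, *Fap* at -0.59, *Dpt* at 0.47 and *Sparc* at -0.80. Leaving out 1 tumor at a time gave 1 to 2 called, 1 to 2 higher and 2 to 6 lower, *Pdgfra* from -0.55 to -0.32, *Dcn* from -0.20 to 0.19, *Lum* from -1.04 to -0.38, *Postn* from -0.77 to -0.44, *Fap* from -0.49 to -0.084, *Dpt* from 0.47 to 0.75 and *Sparc* from -0.72 to -0.46. On whole reads *Lum* was -0.06 with edgeR and -0.04 with DESeq2, and *Fap* -0.08 and -0.07. The sign of *Dcn* changed without knockdown replicate 1 (-0.20), knockdown replicate 3 (-0.06) or CTL replicate 5 (-0.01). The cause of these changes was not tested. Depth did not limit the markers, whose lowest value was 74.9 normalized counts against a floor of 3 reads.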
